A study of Neurospora crassa with 33 samples.

Results

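In Neurospora crassa, 100 genes of short coding sequence (CDS) had lower ribosome density in Δcpc-3 than in wild-type (WT) strains with all 4 reporters. They were chosen by this difference itself, among 1352 genes with a CDS of 300 to 900 nt and a mean mRNA level of at least 10 TPM in both strains, of 2742 genes of that length and 9729 genes in all. Here TPM is the level of a gene per kilobase of CDS, scaled so that all genes of a library sum to 1e+06. Ribosome density is the level of ribosome protected fragments (RPFs) over the level of mRNA, with 0.1 added to both. The genes were ranked by the largest of their 4 log2 density differences, Δcpc-3 minus WT, and the 100 with the lowest value are the members. Among them NCU16512 had no RPF read in any library, so its density differed through the mRNA alone. The density, RPF and mRNA differences between the strains were therefore selected on, and they are given as a description with no test.

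CPC-3 is the N. crassa homologue of the kinase GCN2, which phosphorylates the translation initiation factor eIF2α and thereby slows the start of translation. In fungi, this pathway is known for raising the translation of a transcription activator, GCN4 in budding yeast and CPC-1 in N. crassa, when amino acids run short. Ribosome profiling sequences the short pieces of mRNA that ribosomes shield from nuclease, and dividing them by the mRNA of the same gene shows how densely ribosomes sit on it. Genes for proteins of the cytosolic ribosome, which make up a large part of the members, are among the most highly expressed short genes of a growing fungus.

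The study compared Δcpc-3 strains with WT strains, each carrying 1 Flag-tagged reporter at the csr-1 locus under the ccg-1 promoter, with 1 or 3 copies of the EDP coding sequence in its WT or its optimized (OPT) codons: 1xWT-EDP, 3xWT-EDP, 1xOPT-EDP or 3xOPT-EDP. Mycelia grew in 1 × Vogel's medium with 2% glucose, for 2 days in plates and 12 h with shaking in constant light, and cycloheximide (0.1 mg/ml) was present only in the lysis buffer. There were 13 RPF libraries of Δcpc-3 (4 with 1xWT-EDP and 3 with each other reporter) and 12 of WT (3 with each reporter). mRNA-seq gave 1 library per strain and reporter, 4 of Δcpc-3 and 4 of WT, so an mRNA level has no replicate within a reporter. Mycelia were measured in bulk and every library was scaled to 1 sum, so that a lower level of a gene in a part of the mycelium, fewer cells of a kind and less RNA per cell cannot be told apart.

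Depth, as reads within CDSs, was 1270407 to 7058930 per RPF library of Δcpc-3 and 2741264 to 10035109 per RPF library of WT, and in the mRNA libraries 1260512 to 1747786 in Δcpc-3 and 938867 to 1190373 in WT. The deleted gene, cpc-3 (NCU01187), had 0 to 0.379 TPM of RPFs in Δcpc-3 and 12.1 to 14.3 TPM in WT. Its mRNA was at 0.407 to 1.27 TPM in Δcpc-3 and 18.2 to 26.2 TPM in WT, so every library matched the genotype of its label. The level of cpc-3 does not bear on the reporter or the replicate number of a label. Replicate 4 of Δcpc-3 with 1xWT-EDP stood apart from replicates 1 to 3 of its group: the log2 levels differed with an SD over genes of 0.414 to 0.457, against 0.184 to 0.226 among those replicates and 0.103 to 0.293 in the other groups. In WT, replicate 3 differed from replicates 1 and 2 with each reporter, at 4.76 to 6.38 times the variance of counting noise, against 2.02 to 2.23 times between replicates 1 and 2.

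The median density difference over the 100 members was −0.77 on the log2 scale (mean of the 4 reporters per gene), a density of 0.585 times that of WT. Over the 1352 genes it was 0.07. For all 5949 genes of any length with a mean mRNA level of at least 10 TPM, the median was taken per reporter, and the mean of the 4 medians was −0.26. Once centred on the median of all genes with each reporter, the members lay 0.51 below it, and 90 of the 100 were below 0 with all 4 reporters. The 1352 genes, centred likewise, had a median of 0.33. Their share below 0 with all 4 reporters was not counted after centring, so nothing is read from the 90. With the FPKM as deposited in place of the interval midpoint, the median was −1.16 over the members, and the mean of the 4 medians over all genes was −0.54. All 4 differences were below 0 in 13.6% of the 1352 genes, and in the 100 members by the rule. Of the members, 84 had a lower RPF level in Δcpc-3 with all 4 reporters, beside 23.2% of the 1352 genes, and 37 had a higher mRNA level with all 4, beside 18.9%. The RPF difference was at least as large as the mRNA difference in 70 members and the smaller of the pair in 30, of which 7 had no lower RPF level with any reporter. Both assays thus entered the choice of members, and the parts they took differed between the groups described next.

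**Figure D1:**
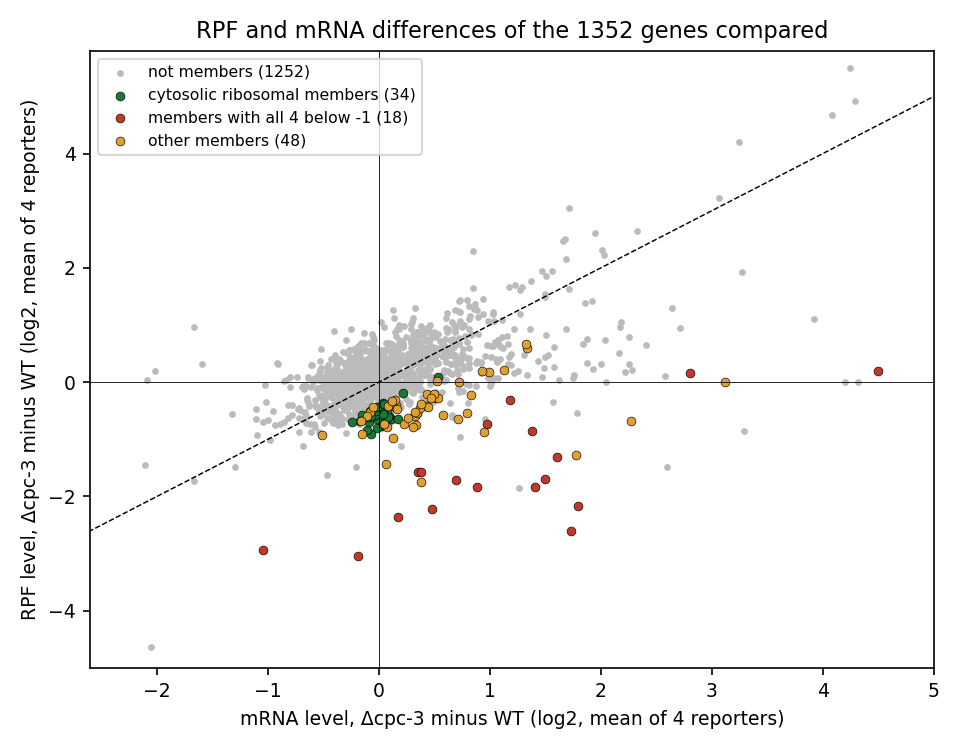
RPF level difference (vertical axis) against mRNA level difference (horizontal axis), both Δcpc-3 minus WT on the log2 scale as the mean of 4 reporters, for 1252 genes that were not members (grey) and the 100 members, coloured by class. Points below the dashed line of equal differences have a lower ribosome density in Δcpc-3. The 34 ribosomal members gather at an mRNA difference near 0. Of the 18 members with all 4 density differences below −1, 9 lie to the right of an mRNA difference of 1.

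The cytosolic ribosome was the largest group of named function. Of the 62 genes on the lists of its small and large subunit proteins that could have been members, 34 were (54.8%), against 7.40% of all 1352 genes. The share depended on the rule: ranked by the mean of the 4 differences 0 of the 100 were ribosomal, and without the 1xWT-EDP strains 20. Ranking by the largest of 4 favours genes that vary little between reporters. The median SD over reporters was 0.14 in the 34 and 0.41 over the 1352, and the median WT mRNA level 1624 and 77.0 TPM. The lists came from the study's own annotation of short genes with optimal codons and cover only that kind of gene. The 34 had a median density difference of −0.55, made up of an RPF difference of −0.59 (0.663-fold) and an mRNA difference of −0.02 (0.990-fold). With all 4 reporters 33 of the 34 had a lower RPF level, beside 23.2% of the 1352 genes. A mean mRNA difference within 0.25 of 0 was seen in 33, beside 623 of the 1352 genes. With the deposited FPKM the median density difference of the 34 was −1.08, and centred on the median of all genes it was −0.29. After centring, 31 of the 34 were below 0 with all 4 reporters, a share that was not counted over the 1352 genes. The other 28 genes of the lists had medians of −0.21 in density, −0.38 in RPF level and −0.14 in mRNA level, and in 14 of them all 4 density differences were below 0. The threshold of the rule thus cut through the genes of the ribosomal lists.

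Among the 14 members of the small subunit list, un-16 (NCU01949), a small-subunit protein gene with a temperature-sensitive mutant, had the lowest largest-of-4 difference. Its RPF level was 656 to 869 TPM in Δcpc-3 (median 776, 13 libraries) and 1069 to 2179 TPM in WT (median 1404, 12 libraries). The groups did not overlap, and the 4 highest WT values were those of replicate 3 with the 4 reporters. Its mRNA level was 1342, 1348, 1166 and 1276 TPM in Δcpc-3 and 1560, 1317, 1326 and 1207 TPM in WT (1xWT-EDP, 3xWT-EDP, 1xOPT-EDP and 3xOPT-EDP). Ribosome density, a ratio of scaled levels and not a number of ribosomes, was 0.571, 0.640, 0.580 and 0.616 in Δcpc-3 and 1.10, 1.17, 0.991 and 1.02 in WT. The log2 difference was −0.83 ± 0.10 (SD, n = 4 reporters). The mRNA levels of the strains overlapped and the densities did not.

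NCU08502, another small-subunit protein gene, showed the same split between the assays. It had 832 to 1285 TPM of RPFs in Δcpc-3 (median 1041) and 1505 to 2203 TPM in WT (median 1693), with no overlap. Its mRNA was at 1878, 1559, 1654 and 1733 TPM in Δcpc-3 and 1879, 1757, 1600 and 1506 TPM in WT, and its density difference was −0.79 ± 0.14 (SD, n = 4). The other small-subunit members were NCU07182, NCU08500, NCU06432, crp-10 (NCU00489), NCU01007, NCU06047, NCU02181, NCU07826, rap-1 (NCU03393), NCU06743, NCU01552 and NCU02419. Over the 14 the mean density differences ran from −0.83 to −0.42 (median −0.59). A lower RPF level with all 4 reporters was seen in 13, beside 23.2% of the 1352 genes. In 10 the RPF libraries of the strains did not overlap, beside 5.84% of the 1352 genes. NCU02419 was the exception in RPF level, with 65.4 to 99.3 TPM in Δcpc-3 and 67.2 to 103 TPM in WT and an mRNA difference of 0.53. NCU02419 and NCU01007 were also the only members of the list with mRNA levels under 100 TPM in both strains, and the annotation places NCU01007 in the mitochondrial small subunit as well.

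Of the 20 large-subunit members, cyh-2 (NCU03806), whose mutants resist cycloheximide, was among the 5 members with the most mRNA. It had 953 to 1345 TPM of RPFs in Δcpc-3 (median 1173) and 1529 to 1931 TPM in WT (median 1758). Its mRNA was at 2010, 1938, 1805 and 2138 TPM in Δcpc-3 and 2249, 1944, 1934 and 1886 TPM in WT. Ribosome density was thus 0.542 to 0.599 in Δcpc-3 and 0.845 to 0.926 in WT, a log2 difference of −0.62 ± 0.09 (SD, n = 4). The strains did not overlap in RPF level or density, while their mRNA levels did.

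The others on the large-subunit list were NCU01221, NCU06226, NCU01776, NCU01317, NCU00706, NCU02707, NCU04779, NCU03988, NCU07829, NCU01948, NCU08389, NCU03565, NCU02509, un-25 (NCU05554), NCU02905, NCU03150, NCU05804, NCU00294 and NCU10498. Their mean density differences, with that of cyh-2, ran from −0.79 to −0.40 (median −0.53). All 20 had a lower RPF level with all 4 reporters, beside 23.2% of the 1352 genes. RPF libraries did not overlap between the strains in 13 of the 20, beside 5.84% of the 1352 genes. NCU05804 had the highest mRNA level of all members over the mean of both strains ( 2175 TPM in Δcpc-3 and 2121 TPM in WT) and a smaller RPF difference, with 1341 to 1681 TPM in Δcpc-3 and 1607 to 2479 TPM in WT, which overlapped. NCU03703, NCU06469 and NCU06958 are annotated to the ribosome without being on these lists, with density differences of −0.78, −0.80 and −0.64.

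Summed over the 34 ribosomal members, the share of the level of all genes was 2.57% to 3.46% in the RPF libraries of Δcpc-3 (median 3.29%, 13 libraries) and 4.09% to 5.70% in those of WT (median 4.59%, 12 libraries). The 2 ranges were separate in all libraries and with each reporter. In the mRNA libraries the share was 4.75% to 5.47% in Δcpc-3 and 4.89% to 5.78% in WT, and the ranges overlapped. WT replicate 3 had the highest RPF share of its group with every reporter, at 4.62% to 5.70%, against 4.09% to 5.13% in WT replicates 1 and 2. Replicate 4 of Δcpc-3 with 1xWT-EDP had 2.85%, against 3.39% to 3.46% in replicates 1 to 3.

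**Figure D2:**
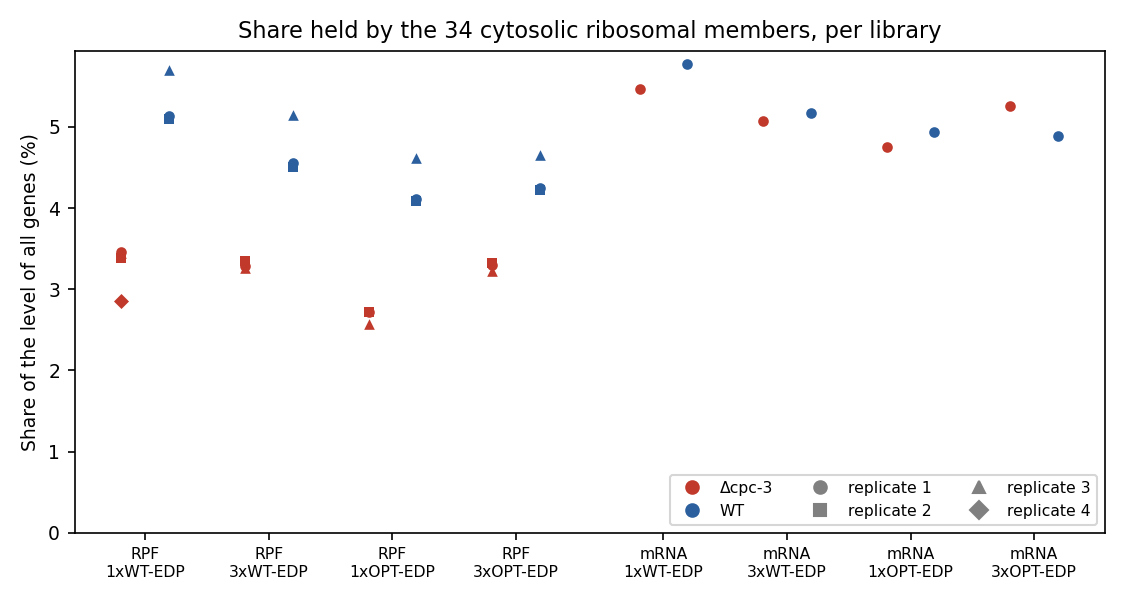
Share of the summed level of all genes, in percent, that the 34 cytosolic ribosomal members held in each RPF and mRNA library, by reporter, with Δcpc-3 in red left of WT in blue and 1 symbol per replicate. The RPF shares are 2.57% to 3.46% in Δcpc-3 and 4.09% to 5.70% in WT, while the mRNA shares overlap, at 4.75% to 5.47% in Δcpc-3 and 4.89% to 5.78% in WT.

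Across all members, every RPF library of Δcpc-3 lay below every RPF library of WT in 43 genes, of which 23 were cytosolic ribosomal. Over the 1352 genes this held for 5.84%, and since the rule used the contrast, nothing is read from the excess. Without replicate 3, a choice made after the data were seen, 58 members and 28 ribosomal members did not overlap, and without replicate 4 the counts stayed at 43 and 23. Leaving out libraries can only keep or raise such a count. The share over the 1352 genes was not counted in these settings, so nothing is read from the rise. In 25 members every mRNA library of Δcpc-3 lay above every mRNA library of WT, beside 11.2% of the 1352 genes, and only 1 of them was cytosolic ribosomal, NCU02419.

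Other genes of translation were fewer. eif5A (NCU05274), the factor that helps ribosomes over stretches of slow peptide bonds and the member with the second highest mRNA level over the mean of both strains, though the highest in Δcpc-3 alone (2190.5 TPM in Δcpc-3 and 2030 TPM in WT), had 1099 to 1411 TPM of RPFs in Δcpc-3 (median 1336) and 1454 to 2021 TPM in WT (median 1629), with no overlap. Its density difference was −0.45 ± 0.19 (SD, n = 4), and it ranked 99 of 100. None of the 10 translation initiation factors that could have been members was one, and their median density difference was 0.27. On the list of the large subunit of the mitochondrial ribosome, which makes the proteins encoded in mitochondrial DNA, 5 of 20 genes were members: NCU04068, NCU00211, NCU06768, NCU00103 and NCU04225. All 5 had more mRNA in Δcpc-3, by 0.34 to 0.71 on the log2 scale, beside RPF differences of −0.75 to −0.20. The 20 genes of this list had a median density difference of −0.40.

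No cytosolic ribosomal gene was among the 18 members whose 4 differences were all below −1, which 1.33% of the 1352 genes were. Their median density was 0.157 times that of WT, with RPF levels at 0.306-fold and mRNA levels at 2.11-fold. In 11 the RPF libraries did not overlap with Δcpc-3 lower, and in 11 the mRNA libraries did not overlap with Δcpc-3 higher. A higher mRNA level with all 4 reporters was seen in 12. Over the 1352 genes these held for 5.84%, 11.2% and 18.9%. Since the rule used these differences, nothing is read from the excess. Depth was limited here: 12 of the 18 had fewer than 10 reads in an RPF library. The 6 with at least 10 reads in every library of both assays had medians of −2.33 in density, −1.65 in RPF level and 0.79 in mRNA level.

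By symbol or annotation 3 of those 18 belong to the cell wall, and NCU04603 is annotated as an endoglucanase. acw-9 (NCU06185), an anchored cell wall protein gene of rank 2, had 48.8 to 98.6 TPM of RPFs in Δcpc-3 (median 76.8) and 181 to 382 TPM in WT (median 252). Its mRNA level was higher in Δcpc-3, with 1045, 926, 712 and 781 TPM in Δcpc-3 and 552, 555, 389 and 385 TPM in WT. Neither assay overlapped between the strains, and ribosome density was 0.0729 to 0.110 in Δcpc-3 and 0.522 to 0.603 in WT, a log2 difference of −2.72 ± 0.25 (SD, n = 4). acw-7 (NCU09133), a further anchored cell wall protein gene annotated to cell wall beta-glucan synthesis, had 5.29 to 22.4 TPM of RPFs in Δcpc-3 (median 13.2) and 32.3 to 59.2 TPM in WT (median 46.4). Its mRNA was at 224, 307, 221 and 274 TPM in Δcpc-3 and 119, 96.6, 82.4 and 88.4 TPM in WT. Its density difference was −3.24 ± 0.66 (SD, n = 4), and again neither assay overlapped.

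NCU00729 carries the same annotation to beta-glucan synthesis and ranked 7. Its RPF level was 7.15 to 23.8 TPM in Δcpc-3 (median 11.4) and 42.9 to 76.9 TPM in WT (median 58.1), while its mRNA level, 137, 143, 132 and 104 TPM in Δcpc-3 and 73.4, 109, 75.5 and 117 TPM in WT, overlapped. NCU04603, the Barwin-related endoglucanase gene, had 4.47 to 22.0 TPM of RPFs in Δcpc-3 (median 8.83) and 23.6 to 39.9 TPM in WT (median 28.8). Its mRNA was at 235, 263, 219 and 207 TPM in Δcpc-3 and 73.3, 88.6, 92.2 and 73.8 TPM in WT. Of the 5 genes annotated to cell wall beta-glucan synthesis among the 1352, acw-7 and NCU00729 were members, and acw-2 (NCU00957) was the second gene outside the threshold.

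Several members of the highest ranks have no annotation in the sources used. NCU06509, of rank 1, had 0 to 8.54 TPM of RPFs in Δcpc-3 (median 3.75) and 15.9 to 27.3 TPM in WT (median 22.5), and 95.4, 85.4, 90.2 and 110 TPM of mRNA in Δcpc-3 against 41.2, 34.0, 30.2 and 15.4 TPM in WT. NCU05789, of rank 3, had 0 to 3.83 TPM of RPFs in Δcpc-3 and 2.79 to 5.88 TPM in WT, which overlapped, beside 104.5, 120.1, 78.8 and 93.9 TPM of mRNA in Δcpc-3 and 63.2, 36.3, 14.9 and 31.6 TPM in WT, which did not. NCU03293, of rank 8, had 51.0 to 101 TPM of RPFs in Δcpc-3 (median 76.4) and 196 to 307 TPM in WT (median 228), and 695, 755, 560 and 457 TPM of mRNA in Δcpc-3 against 426, 408, 346 and 326 TPM in WT. NCU03600, of rank 9, had 18.1 to 55.3 TPM of RPFs in Δcpc-3 and 49.2 to 73.3 TPM in WT beside 1295, 1633, 1575 and 1179 TPM of mRNA in Δcpc-3 and 574, 636, 549 and 424 TPM in WT. Its RPF libraries overlapped and its mRNA libraries did not, so most of its difference of −2.24 ± 0.33 (SD, n = 4) lay in the mRNA. NCU02344, of rank 11 and, like NCU04496 and NCU17100, named after its values were seen, was the reverse: 2.07 to 12.5 TPM of RPFs in Δcpc-3 (median 5.43) and 40.0 to 59.3 TPM in WT (median 46.5), beside overlapping mRNA levels of 51.1, 55.8, 49.2 and 36.0 TPM in Δcpc-3 and 62.4, 43.8, 54.1 and 57.9 TPM in WT. NCU04496, annotated to electron carrier activity, was the only one of the 18 in which mRNA was lower in every Δcpc-3 library (22.4 to 47.0 TPM in Δcpc-3 and 59.8 to 70.3 TPM in WT), and its RPF level was lower still, at 0.131-fold.

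**Figure D3:**
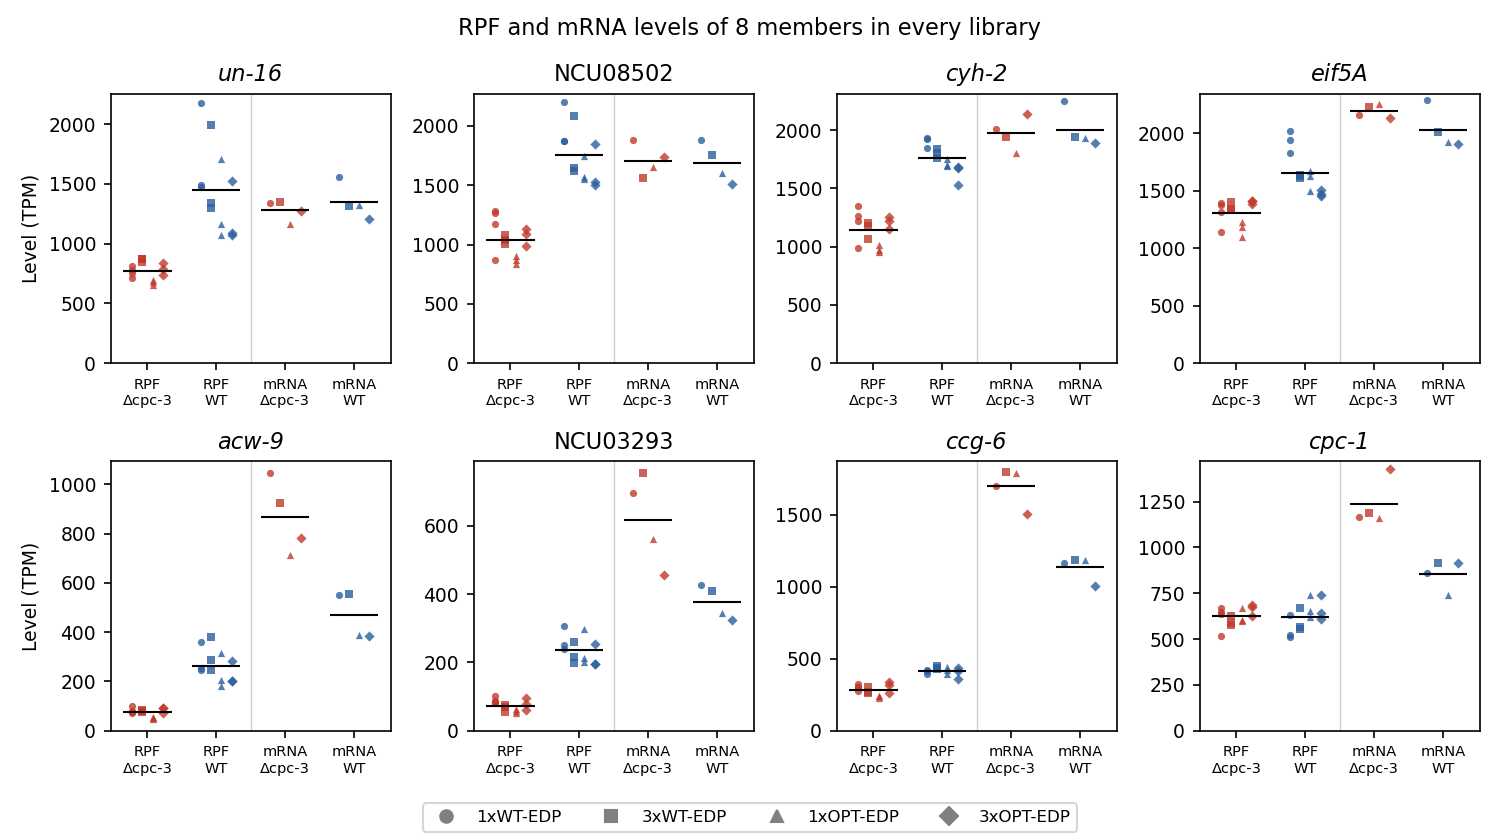
RPF levels (left of each grey line) and mRNA levels (right of it) in TPM of 8 members in every library, with Δcpc-3 in red left of WT in blue, 1 symbol per reporter and the mean of each group as a black line. In the upper row (un-16, NCU08502, cyh-2 and eif5A) the strains differ in RPF level, with medians of 776 TPM in Δcpc-3 and 1404 TPM in WT for un-16, and overlap in mRNA level; in the lower row acw-9, NCU03293, ccg-6 and cpc-1 have more mRNA in every Δcpc-3 library.

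Proteins that enter the secretory pathway are made at the membrane of the endoplasmic reticulum (ER), and 5 of the 16 genes on the ER membrane list were members. dpm (NCU07965), annotated to the ER membrane and to protein O-linked mannosylation, had 293, 265, 243 and 268 TPM of mRNA in Δcpc-3 and 125, 141, 112 and 97.7 TPM in WT. Its RPF level was 29.5 to 68.0 TPM in Δcpc-3 (median 51.1) and 52.8 to 71.8 TPM in WT (median 61.8), which overlapped. Its density difference of −1.49 ± 0.26 (SD, n = 4) thus lay mainly in the mRNA. erg-1 (NCU04156), a sterol isomerase gene of ergosterol synthesis, differed instead in RPF level, at 49.1 to 118 TPM in Δcpc-3 and 109 to 167 TPM in WT, with an mRNA difference of 0.08. The other members of the list were NCU01146, NCU03910 and NCU02455, the last annotated as a peptidyl-prolyl isomerase, and the 16 genes had a median density difference of −0.12.

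ccg-6 (NCU01418), a clock-controlled gene, ranked 19 and lay just above the value of −1. It had 1703, 1796, 1789 and 1507 TPM of mRNA in Δcpc-3 and 1166, 1187, 1186 and 1007 TPM in WT, and 230 to 342 TPM of RPFs in Δcpc-3 (median 276) and 360 to 452 TPM in WT (median 422). Neither assay overlapped, and the density difference was −1.16 ± 0.21 (SD, n = 4). cpc-1 (NCU04050), the transcription activator of cross-pathway control and the best known target of the kinase pathway, ranked 87. Its RPF levels overlapped, at 518 to 684 TPM in Δcpc-3 (median 628) and 510 to 741 TPM in WT (median 625), whereas its mRNA level was 1164, 1190, 1162 and 1425 TPM in Δcpc-3 and 858, 913, 742 and 914 TPM in WT. Its density was 0.531, 0.503, 0.537 and 0.463 in Δcpc-3 and 0.645, 0.652, 0.903 and 0.726 in WT, a log2 difference of −0.51 ± 0.22 (SD, n = 4) that lay in the mRNA.

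Genes of respiration and of other functions gave single members. fes-1 (NCU06606), the Rieske iron-sulphur protein of the respiratory chain, was the only member among 33 genes of oxidative phosphorylation and among 17 of the mitochondrial inner membrane, with 281 to 425 TPM of RPFs in Δcpc-3 (median 355) and 469 to 587 TPM in WT (median 508). Those 33 genes had a median density difference of −0.02. NCU08034 was the only member of 8 mRNA splicing genes, and NCU01650 the only one of 19 genes of the thioredoxin-like fold. None of the 13 genes of the proteasome, the 12 of protein folding, the 11 of small GTPase signalling or the 9 of RNA polymerase was a member, and the medians of these 4 lists were between 0.18 and 0.36.

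At the bottom of the depth range the choice of a member rested on very few reads. 21 members had an RPF library and 16 an mRNA library with fewer than 10 reads, none of them cytosolic ribosomal, and 75 members had at least 10 reads in every library of both assays, with a median density difference of −0.69. In 11 members some library had 0 reads, and all 6 members with a difference below −4 with some reporter were among those 11. NCU16512 had no RPF read in any of the 25 libraries, so its place among the members came from mRNA alone, at 39.6, 37.3, 49.0 and 35.4 TPM in Δcpc-3 and 26.2, 22.7, 7.43 and 0 TPM in WT. NCU01560, of rank 6, had RPF reads in only 1 Δcpc-3 and 1 WT library. The other members with a median under 10 RPF reads in a strain were NCU06509, NCU05789, NCU11308, NCU05163, NCU17100, NCU06427, pls-1 (NCU07432), a tetraspanin gene, and NCU01734. NCU17100 combined few RPF reads with much mRNA, at 694, 875, 888 and 925 TPM in Δcpc-3 and 155, 116, 99.1 and 118 TPM in WT beside 0 to 9.28 TPM of RPFs in Δcpc-3 and 0.634 to 4.21 TPM in WT.

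**Figure D4:**
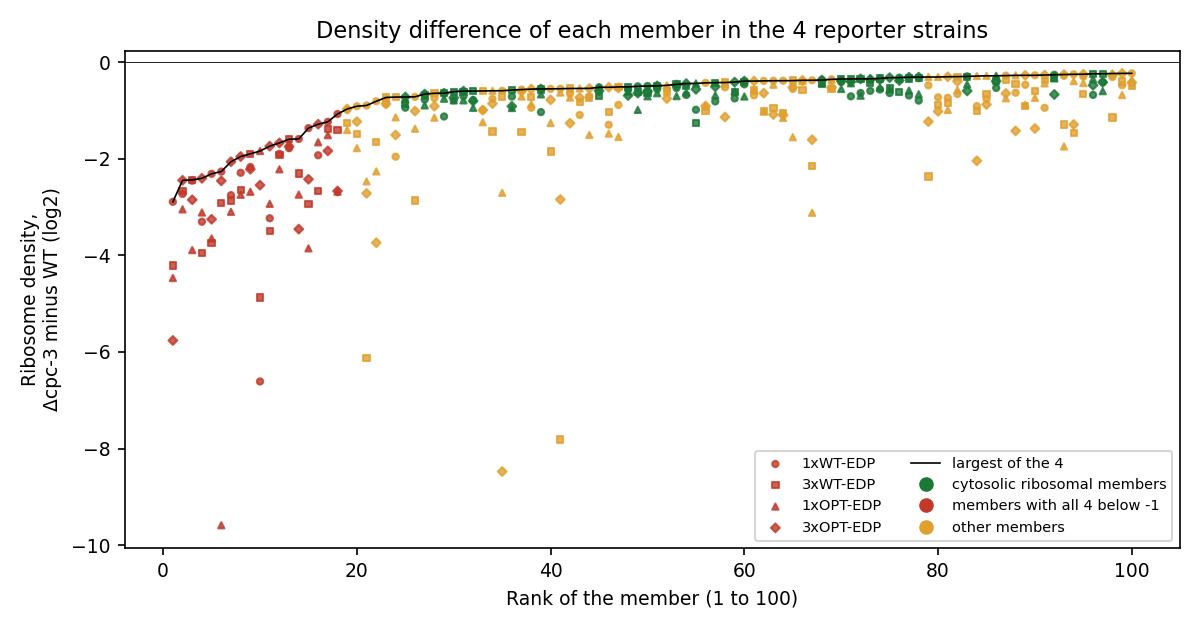
Log2 ribosome density difference, Δcpc-3 minus WT, of each of the 100 members in order of rank, with 1 symbol per reporter, the largest of the 4 as a black line and the class in colour. Ribosomal members, in green, start at rank 25 and keep close to the line, with a median SD over reporters of 0.14, whereas the 6 members with points below −4 all have a library with 0 reads.

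The threshold fell in a dense part of the ranking. The last 3 genes inside it were NCU01814 at −0.24, eif5A at −0.24 and NCU02455 at −0.23, and the first 3 outside were nuo19.3 (NCU03953), a gene of respiratory complex I, at −0.21, acw-2 (NCU00957) at −0.21 and gst-4 (NCU10521), a glutathione transferase gene, at −0.21. The differences of a member varied less between reporters in the ribosomal class, with a median SD over the 4 reporters of 0.14, than among the other 66 members, with 0.37. When genes were ranked instead by the mean of the 4 differences, 38 of the 100 remained and none of the 100 was cytosolic ribosomal.

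The members differed in CDS length by class. The ribosomal members had a median CDS of 538.5 nt (321 to 873 nt), against 435 nt for the 28 ribosomal genes outside the threshold. The other 66 members had a median of 726 nt, and the 1352 genes 627 nt. In the NC12 gene table, un-16 and NCU01948 are neighbouring genes, as are NCU02707 and NCU10498, and each of these pairs joins ribosomal members. NCU08502 and NCU08500, as well as NCU01552 and NCU01550, have 1 gene between them.

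The reporters gave comparisons between strains of 1 genotype, which were not the contrast of the rule, although they rest on the same libraries. They are not independent of the rule, which favoured genes whose density difference between the genotypes varied little between reporters. Like reporter effects in both genotypes are therefore not read as separate results, and the p-values take no account of the choice of members. limma fits of log2(TPM + 0.1) over all 25 RPF libraries, for 6987 genes with a mean RPF level of at least 1 TPM, tested the OPT against the WT codons and 3 against 1 copies of EDP within each genotype, with Benjamini-Hochberg adjustment over all genes. 98 of the members were tested. Each reporter was carried by strains of its own, so the reporter and any other difference between these strains cannot be told apart, and the p-values measure the spread between replicate libraries only.

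With OPT instead of WT codons in the reporter, 5 members had lower RPF levels in Δcpc-3 and 0 higher (limma, adjusted p under 0.05), against 0.801% of all tested genes lower and 0.558% higher. At an unadjusted p under 0.05 (limma) there were 31 and 0 members, beside 545 and 532 of the 6987 genes. In WT 10 members were lower and 0 higher, against 1.47% and 1.47% of all genes. Unadjusted there were 41 and 1, beside 497 and 382 of the 6987 genes. The ribosomal members leaned one way, lower with OPT in 33 of 34 in Δcpc-3 (median −0.15) and in 34 of 34 in WT (median −0.21), beside medians over all genes of 0.00 and −0.02. The lean was not theirs alone: the other tested members had medians of −0.10 in Δcpc-3 and −0.18 in WT. Of all 98 tested members, 76 were lower in Δcpc-3 and 86 in WT. The 34 were measured in the same libraries and are not 34 separate results. With the deposited FPKM the ribosomal medians were −0.37 in Δcpc-3 and −0.19 in WT. In WT the 34 held 4.09% to 4.62% of the RPF level with 1xOPT-EDP and 4.23% to 4.65% with 3xOPT-EDP. They held 5.10% to 5.70% with 1xWT-EDP and 4.50% to 5.15% with 3xWT-EDP. Their mRNA share in WT leaned likewise, at 4.94% and 4.89% with OPT (1 and 3 copies), against 5.78% and 5.17% with WT codons. In Δcpc-3 the mRNA share was 4.75% and 5.26%, against 5.47% and 5.08%. Whether the RPF lean followed the mRNA was not tested. In Δcpc-3 the lean rested mainly on 1 strain: the 34 genes held 2.57% to 2.72% of the RPF level with 1xOPT-EDP, but 3.23% to 3.32% with 3xOPT-EDP, against 3.26% to 3.34% with 3xWT-EDP and 3.39% to 3.46% in replicates 1 to 3 and 2.85% in replicate 4 with 1xWT-EDP. rap-1 (NCU03393) was called in both genotypes: its means were 678 ± 16.7 and 907 ± 59.4 TPM with 1xOPT-EDP and 3xOPT-EDP, against 855 ± 14.3 and 937 ± 34.9 TPM with 1xWT-EDP and 3xWT-EDP in Δcpc-3 (SD; n = 3, with 4 for 1xWT-EDP), a log2 difference of −0.19 ± 0.04 (SE, limma, adjusted p = 0.0147). In WT it had 1144 ± 66.8 and 1135 ± 44.4 TPM with OPT, against 1424 ± 40.1 and 1299 ± 81.3 TPM with WT codons (SD, n = 3), a difference of −0.26 ± 0.04 (SE, limma, adjusted p = 0.000538).

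The other members called in Δcpc-3 were erg-1 (NCU04156) at −0.42, NCU08389 at −0.25, NCU04779 at −0.18 and NCU06432 at −0.30, all cytosolic ribosomal except erg-1. In WT the 5 with the lowest adjusted p were rap-1, NCU02509 at −0.30, NCU06047 at −0.23, NCU04779 at −0.24 and NCU07829 at −0.26, all cytosolic ribosomal. The counts depended on single libraries. Without replicate 4 of Δcpc-3 with 1xWT-EDP, 25 members were called in Δcpc-3 and 21 in WT; without replicate 1 or without replicate 2, 0 in both; and without replicate 3, 0 in Δcpc-3 and 17 in WT. With the deposited FPKM 23 were called in Δcpc-3 and 0 in WT, beside 396 and 67 genes. The number of calls over all genes thus changed with the setting as well.

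With 3 instead of 1 copies of EDP, 10 members had higher and 2 lower RPF levels in Δcpc-3, against 2.78% of all tested genes higher and 4.52% lower. Of the 10, 8 were cytosolic ribosomal. The median over the ribosomal members was 0.14 (32 of 34 higher), while that over the other tested members was 0.02 and that over all genes −0.04. This lean rested mainly on the 1xOPT-EDP strain too: the share of the 34 was 3.23% to 3.32% with 3xOPT-EDP, against 2.57% to 2.72% with 1xOPT-EDP, whereas 3xWT-EDP, at 3.26% to 3.34%, lay below replicates 1 to 3 with 1xWT-EDP, at 3.39% to 3.46%, and above its replicate 4, at 2.85%. The mRNA share of the 34 in Δcpc-3 was 5.26% with 3xOPT-EDP against 4.75% with 1xOPT-EDP, and 5.08% with 3xWT-EDP against 5.47% with 1xWT-EDP. With the deposited FPKM the ribosomal median was 0.0074. In WT 0 members were called in either direction (limma, adjusted p under 0.05), against 0.114% of all genes lower and 0.243% higher. At an unadjusted p under 0.05 (limma) 10 were lower and 0 higher, beside 288 and 246 of the 6987 genes. The ribosomal median was −0.07 and that of the other tested members −0.06. With the replicate number as a block 32 members were called in Δcpc-3 and 11, all lower, in WT, beside 1590 and 299 of all tested genes. NCU02455, the peptidyl-prolyl isomerase gene, had the lowest adjusted p in Δcpc-3: 150 ± 1.87 and 190 ± 15.2 TPM with 3xWT-EDP and 3xOPT-EDP, against 248 ± 22.9 and 225 ± 8.43 TPM with 1xWT-EDP and 1xOPT-EDP (SD; n = 3, with 4 for 1xWT-EDP), a log2 difference of −0.49 ± 0.06 (SE, limma, adjusted p = 3.2e-05). In rap-1 (NCU03393) the difference was 0.27 ± 0.04, in NCU01776 0.29 ± 0.05 and in NCU06047 0.20 ± 0.04 (SE; limma, adjusted p = 0.000198, 0.00255 and 0.00303). NCU11308, with 0 to 7.5 RPF reads per Δcpc-3 library, was called at −4.21 ± 0.89 (SE, limma, adjusted p = 0.0067), but its RPF level was 0 in all libraries with 3xWT-EDP, so that its size rests on the added 0.1. Replicate 4 of Δcpc-3 with 1xWT-EDP again bore on the counts. Without it 19 members were called in Δcpc-3 and 6, all lower, in WT, beside 1227 and 114 of the 6987 tested genes. Without replicate 1 the counts were 2 and 0, beside 22 and 0 genes, and without replicate 2 they were 1 and 0, beside 16 and 0. Without replicate 3 they were 14 and 0, beside 252 and 10 genes. With the deposited FPKM they were 2 and 0, beside 256 and 9 genes, and rap-1 and NCU06047 reversed sign in Δcpc-3. Whether a reporter contrast differed between the genotypes is not reported, since that difference is made of the strain differences that chose the members.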

How the data were processed

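RPF and mRNA reads had been aligned to CDS regions by the authors, and the submitters' processing notes name Bowtie2 and Cufflinks. Versions, parameters and the genome build are not given in the sources used here. The authors deposited per gene an FPKM, its interval bounds and the coverage of the CDS. The deposited FPKM departed from the midpoint of its own interval by a factor that varied between groups of libraries and that no source used here explains: over the members, FPKM over midpoint was 0.871 to 1.10 in RPF libraries of Δcpc-3 and 1.14 to 1.27 in those of WT, and 1.26 to 1.29 and 1.18 to 1.22 in the mRNA libraries. The midpoint, a choice made after the data had been seen, was used instead, scaled to a sum of 1e+06 per library. The coverage signal deposited by the authors entered no result. The spacing of the bounds was a whole number of reads (within 0.02) in at least 99.94% of the narrower intervals of every library, which gave the depth. These reads describe depth only, and intervals around them would cover counting error only. The pair of reporter entries was left out of the genes.

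Members and lists were chosen with earlier results of these data known. The named genes are the 10 members of lowest largest-of-4 difference, the 3 genes on each side of the threshold, the 5 members with the most mRNA, members on a list or with a symbol, and up to 5 members called per reporter contrast. Symbols came from the RefSeq NC12 table, where all 1352 genes were found, and annotations from the study's supplementary gene groups. Reporter contrasts were fitted with limma 3.58.1 (trend) in R 4.3.3 with 8 groups of strain and reporter, and tested on simulated data. Python 3.11.15, numpy 2.4.6, pandas 2.3.3 and matplotlib 3.10.9 were used. Alternatives changed the value, the added 0.1, the minimum levels, the merging, the ranking, the centring, the normalization and the libraries. The study states at least 3 biological replicates.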

Additional observations from a re-analysis of the deposited data

Results flagged for a closer look

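Among 64 groups of 4 values in 16 members described in the text, 4 held a value far from the other 3; chance flags about 1 in 20 groups. The WT mRNA library with 1xWT-EDP was high for NCU07182 (1930 TPM, against 1617 to 1666 TPM) and for cyh-2, NCU03806 (2249 TPM, against 1886 to 1944 TPM), and this library also had the highest ribosomal share of mRNA. The WT mRNA library with 3xOPT-EDP was low for ccg-6, NCU01418 (1007 TPM, against 1166 to 1187 TPM). The Δcpc-3 mRNA library with 3xOPT-EDP was high for cpc-1, NCU04050 (1425 TPM, against 1162 to 1190 TPM).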

How the results depend on the processing

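Of the 100 members, 78 remained with the deposited FPKM and 84 to 99 under the other choices of added value, minimum level and merging, 85 to 94 without a replicate, and 38 when ranked by the mean of the 4 differences. The ribosomal genes among the 100 numbered 34; ranked by the mean they were 0, and without the 1xWT-EDP strains 20. The median density difference of the members (−0.77) was −1.16 with the deposited FPKM, −0.51 centred on all genes and −0.80 to −0.68 without a replicate; that of the ribosomal members (−0.55) was −1.08, −0.29 and −0.58 to −0.51. Members called with OPT codons in Δcpc-3 (5) numbered 23 with FPKM, 8 at a minimum RPF level of 10, 3 with no minimum and 0 to 25 without a replicate. Over all tested genes these settings called 396, 117, 82 and 4 to 632. In WT (10) they were 0 with FPKM, 2 after quantile normalization and 0 to 21 without a replicate. With 3 copies in Δcpc-3 (12) they were 2 with FPKM and 1 to 19 without a replicate, beside 256 and 16 to 1227 genes. In WT (0) they were 0 to 6 without a replicate, beside 0 to 114 genes. With FPKM the copy effect in Δcpc-3 turned to −0.022 in rap-1 (NCU03393) and −0.13 in NCU06047. With the replicate number as a block the counts were 40, 32, 40 and 11 (OPT in Δcpc-3, 3 copies in Δcpc-3, OPT in WT, 3 copies in WT), beside 979, 1590, 620 and 299 of all tested genes. The block also gives replicate 4, present in 1 group only, a term of its own, so these compare with the counts of 25, 19, 21 and 6 without replicate 4. The numbers were not taken to pair the libraries, since not every same-numbered pair deviated together with a correlation over 0.1: it was −0.007 to 0.206 in WT (over 0.1 in 7 of 18 pairs, among them all 6 pairs of replicate 3, at 0.106 to 0.206) and −0.063 to 0.114 in Δcpc-3 (3 of 18). Pairs of unlike number averaged −0.045 in WT and −0.02 in Δcpc-3. A part shared by the WT replicate 3 libraries thus stayed in the spread of the main fit. Of the values for single called genes, 101 kept direction and call, 46 lost the call and 2 reversed. The cause was not tested. The settings for the ribosomal members and the left-out reporters were chosen after the data were seen. Depth limits the members under 10 reads most.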
